A study of Mus musculus with 6 samples.

Results

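The tumor suppressor p53, encoded by *Trp53* in the mouse, and 9 genes that p53 is known to activate were examined in satellite cells (SCs), the resident stem cells of skeletal muscle. The 10 genes, *Trp53*, *Mdm2*, *Ccng1*, *Bax*, *Bbc3*, *Gdf15*, *Sesn2*, *Btg2*, *Phlda3* and *Zmat3*, were picked by name from the 55416 genes of the deposited expression table, and each name matched 1 row. *Cdkn1a*, which encodes p21 and is the best known p53 target, was kept outside the group and is given for reference. The question was whether loss of lactoferrin, an iron-binding glycoprotein encoded by *Ltf*, went with a different p53 transcript program in growing SCs. RNA was sequenced from 3 WT and 3 *Ltf*-KO libraries. The knockout was made in C57/BL6N zygotes by CRISPR-Cas9, with guides in 2 introns of *Ltf*, and is systemic, so every cell type of the animal carried it. Exons 2 to 8 are named as deleted in the methods and exons 3 to 8 in the supplement. Mice were 8 to 10 weeks old unless another age was given. SCs of the hind leg were sorted as Sca1-/CD11b-/CD34+/α7-integrin+ into medium with serum, chick embryo extract and basic fibroblast growth factor. Both genotypes then grew for 4 days on Matrigel-coated plates, with no treatment, and the growth medium is not named separately. The labels do not say whether a library came from 1 mouse or from a pool, so the p-values below measure the spread between these libraries.

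p53 is a transcription factor that is made continuously and destroyed quickly, and stress such as DNA damage mainly stabilizes the protein. Stabilized p53 turns on genes that stop the cell cycle, start apoptosis, lower growth signaling and handle metabolic stress, and it also turns on its own inhibitor, the ubiquitin ligase *Mdm2*, which closes a feedback loop. In myoblasts p53 and its targets are known to be active during cell cycle exit and differentiation.

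p53 binds DNA at pairs of a half-site of 10 bases. RefSeq promoters of GRCm38.p6, from 250 bases before to 50 bases after a start, were found by symbol for 9 of the 10 genes, with 12 promoters between them. *Zmat3* had no entry. An exact match to the consensus p53 half-site, which reads the same on both strands, occurred in the promoters of *Bax*, *Mdm2*, *Ccng1* and *Trp53*. Of all 32851 promoters of that length 8.36% held one, and of all genes with a promoter 9.55% did. *Bax* and *Ccng1* also held a paired site, defined as a pair of half-sites at most 13 bases apart with at most 1 mismatch in all. Such a pair occurred in 1.09% of all promoters and in 1.24% of all genes with a promoter. A paired site so defined always contains an exact half-site, so the searches are not independent. The mismatch allowed was set after the promoters had been scanned. The matches are shown because p53 acts on its targets through such sites. They are given on the strand of the gene and 5′ to 3′, with the half-sites in capitals and 5 flanking bases on each side.
*Ccng1*, paired site, chr11:40755457-40755486, minus strand: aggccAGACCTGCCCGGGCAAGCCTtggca
*Bax*, paired site, chr7:45467085-45467115, minus strand: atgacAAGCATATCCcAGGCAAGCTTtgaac
*Mdm2*, half-site, chr10:117710930-117710949, minus strand: gatagGAACTTGCCTagcga
*Trp53*, half-site, chr11:69580279-69580298, plus strand: cggaaGGACTTGCCCttact
The *Ccng1* pair starts 195 bases before the annotated start with 0 bases between its half-sites, and the *Bax* pair starts 212 bases before it with 1 base between. The *Mdm2* half-site starts 186 bases and the *Trp53* half-site 75 bases before the start. A match is a description of letters and does not show binding. Genes with or without a match in this window may be bound elsewhere, as *Mdm2* is known to be in its first intron.

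Expression values were TPM, in which the reads of a gene are divided by its length and scaled to one total per library. Levels can therefore be set side by side between genes, but read depth is not known from these values. The libraries summed to between 993650 and 994356 TPM. *Ltf* was listed at 0 to 0.12 TPM in all 6 libraries and does not tell the genotypes apart. All 8 markers of SCs and myoblasts were present, from *Pax7* at 36.62 to 43.3 TPM to *Myod1* at 747.62 to 815.74 TPM, and their sum was 1987 to 2035 TPM in WT and 2018 to 2066 TPM in *Ltf*-KO libraries. The summed markers of differentiated muscle reached 2413 to 3271 TPM in WT and 2397 to 3800 TPM in *Ltf*-KO libraries, so the cultures held differentiating cells too. All 8 of these markers had a log2 difference above 0 (median 0.13), with overlapping groups. At an unadjusted p under 0.05 in limma there were 0 of them, against 3.78% of all tested genes. Markers of fibroblasts summed to 5.68 to 10.56 TPM in WT and 8.66 to 12.81 TPM in *Ltf*-KO libraries, those of endothelial cells to 5.68 to 14.22 and 5.68 to 13.31 TPM, and those of Schwann cells to 11.66 to 21.81 and 13.21 to 19.45 TPM. The 5 macrophage and leukocyte markers summed to 3.7 to 4.26 and 3.21 to 3.74 TPM, nearly all of it *Cd68*, a lysosomal gene, which was at 3.56 to 3.98 TPM in WT and 3.12 to 3.52 TPM in *Ltf*-KO libraries, with *Ptprc* and *Adgre1* at 0.16 TPM or less. The 5 smooth muscle and pericyte markers summed to 444.4 to 528.2 TPM in WT and 492.2 to 624.8 TPM in *Ltf*-KO libraries. *Acta2*, which cultured myoblasts also express, made up 408.79 to 593.04 TPM of this, *Cspg4* was at 30.76 to 41.07 TPM, and *Myh11*, *Rgs5* and *Kcnj8* were each under 1 TPM. *Rgs5*, at 0.12 to 0.46 TPM, had all *Ltf*-KO libraries above WT. How many genes this low have such an order was not counted. The part of other cell types in the values below was not tested. *Xist* was at 162.95 to 185.33 TPM and 4 Y-linked genes at 0.2 TPM or less in all 6 libraries. In such bulk libraries, fewer cells of a type and less RNA per cell cannot be told apart.

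Transcripts of p53 and several of its targets were abundant in these cultures. Among the 12956 genes whose mean reached 1 TPM, *Bax* ranked 326th by mean TPM, *Phlda3* 536th, *Mdm2* 580th, *Ccng1* 704th and *Trp53* 706th, and the 10 genes together made up 1351 to 1440 TPM per library. *Bax* was highest at a mean of 425 TPM, above *Phlda3* (259.6 TPM) in 6 of 6 libraries with no overlap of their ranges. *Phlda3* and *Mdm2* (238 TPM) overlapped, as did *Ccng1* (193 TPM) and *Trp53* (192.8 TPM), which stood in either order in 3 libraries each. Below them lay a gap of 4.89-fold to *Zmat3* (39.4 TPM), and one of 2.47-fold from there to *Btg2* (15.97 TPM). The ranges of *Btg2*, *Bbc3* (12.8 TPM), *Sesn2* (10.6 TPM) and *Gdf15* (9.85 TPM) each overlapped that of the next gene. The order of these neighbors is therefore not fixed by these data. *Btg2*, at 14.5 TPM or more, lay above *Sesn2* (12.11 TPM or less) and *Gdf15* (11.28 TPM or less) in all 6 libraries. *Cdkn1a* was above all 10 genes, at 462.18, 503.24 and 497.99 TPM in WT and 520.96, 487.81 and 511.94 TPM in *Ltf*-KO libraries.

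**Figure D1:**
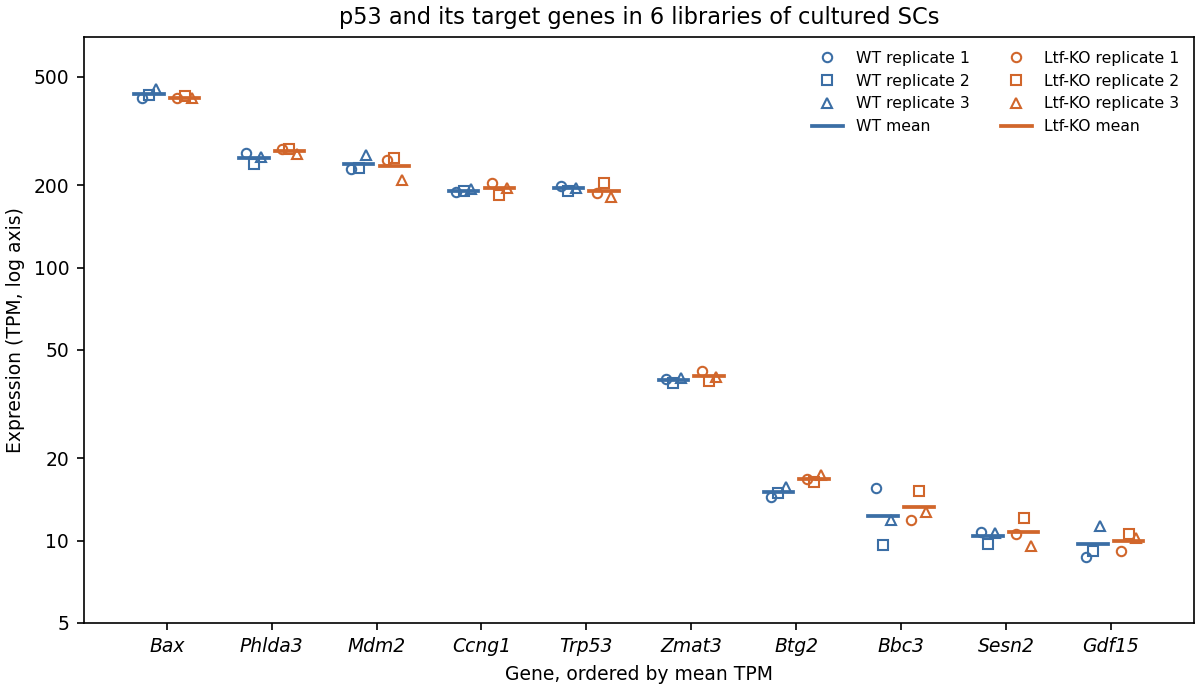
TPM of p53 and 9 target genes on a log axis, with each library as a point (WT blue, *Ltf*-KO orange) and the genotype mean as a line. The 5 most abundant genes lie between 180.56 and 449.62 TPM and the 4 least abundant between 8.69 and 17.36 TPM, and the genotypes overlap for all genes but *Btg2*.

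Between genotypes, 0 of the 10 genes differed at an adjusted p under 0.05 in limma on log2(TPM + 1), where 0 of 12956 tested genes did (0.0%). At an unadjusted p under 0.05 there was 1 of the 10, *Btg2*, against 490 of all tested genes (3.78%), and among genes that were higher in *Ltf*-KO it was 1 against 260 (2.01%), and among genes that were lower 0 against 230 (1.78%). All 10 genes passed the filter on low values. *Btg2* was also the only one of the 10 whose *Ltf*-KO libraries did not overlap the WT libraries, which was so for 1096 tested genes (8.46%), 613 of them with *Ltf*-KO above WT (4.73%). One gene of 10 is the smallest count above 0 that the group could show, and nothing is read from it. The log2 differences of the 10 genes ran from -0.04 (*Bax*) to 0.15 (*Btg2*), with 7 above 0 and a median of 0.041, while the median over all tested genes was 0.011 and 55.7% of these were above 0. The median absolute difference was 0.0415 for the 10 genes and 0.0582 for all tested genes. These 2 medians are not matched for level. Over all tested genes it was 0.0485 at 10 to 100 TPM, where 4 of the 10 genes lie. The absolute differences of these 4 ran from 0.0393 (*Sesn2*) to 0.1546 (*Btg2*). At 100 to 1000 TPM, where 5 of the 10 genes lie, the median over all tested genes was 0.0285. The absolute differences of these 5 ran from 0.0254 (*Ccng1*) to 0.0887 (*Phlda3*).

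**Figure D2:**
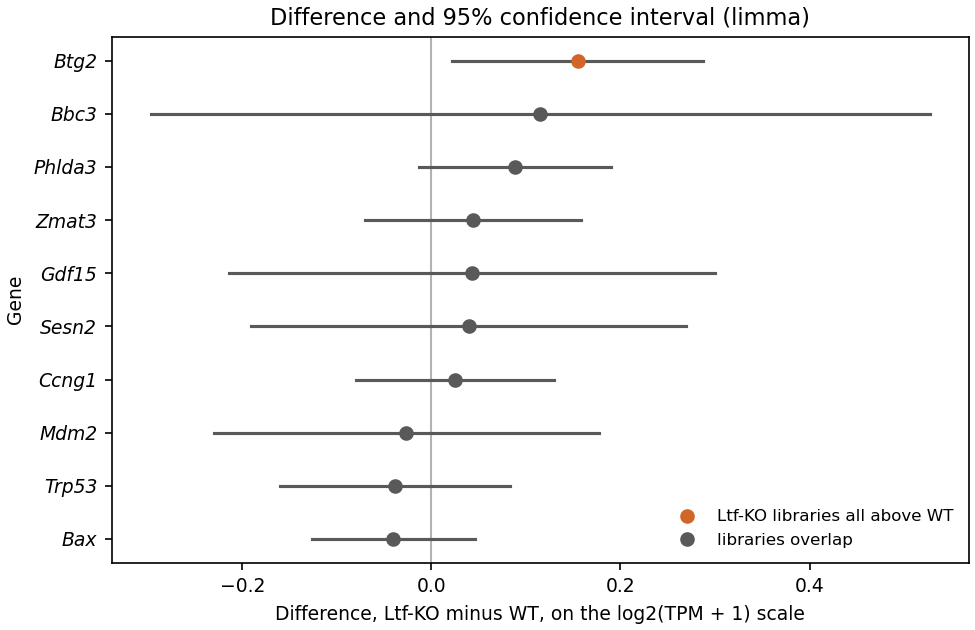
Difference between *Ltf*-KO and WT on the log2(TPM + 1) scale for each gene, with its 95% confidence interval from limma, unadjusted for the number of genes. The interval of *Btg2* (0.022 to 0.287) lies above 0 and the other 9 cross it, with *Bbc3* the widest (-0.297 to 0.527).

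*Trp53* itself was at 199.59, 191.05 and 195.21 TPM in WT and 186.76, 203.52 and 180.56 TPM in *Ltf*-KO SCs. The *Ltf*-KO libraries held both the highest and the lowest value, around the narrow WT range. Means were 195 ± 4.27 and 190 ± 11.9 TPM (SD, n = 3 each), a log2 difference of -0.039 (standard error 0.051, limma adjusted p = 0.999). Its 95% confidence interval, -0.16 to 0.083, corresponds to 0.895- to 1.06-fold. The *Trp53* pseudogene was listed at 0 in all 6 libraries. *Trp53* lies on chromosome 11 and shares no exon bases with another gene in GENCODE M21. These are transcript levels, and p53 protein was not measured here.

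*Mdm2*, whose product ubiquitinates p53, was at 230.35, 231.79 and 258.41 TPM in WT and 248.42, 252 and 208.51 TPM in *Ltf*-KO SCs. *Ltf*-KO replicate 3 was the lowest of all 6 libraries and the other two *Ltf*-KO libraries lay inside the WT range. The log2 difference was -0.026 (95% confidence interval -0.23 to 0.177, limma adjusted p = 0.999), and it turned to 0.061 without *Ltf*-KO replicate 3 and to 0.027 without WT replicate 3. Per library, *Mdm2* stood at 1.23 ± 0.0861 times *Trp53* in WT and 1.24 ± 0.0877 times in *Ltf*-KO SCs (SD, n = 3 each), a difference smaller than the spread. Its paralog *Mdm4*, which inhibits p53 without being a strong ligase, was lower by a factor of 10.0 to 13.9 in every library.

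*Ccng1*, an early p53 target that encodes cyclin G1 and recruits a phosphatase to Mdm2, was at 188.6, 191.12 and 194.02 TPM in WT and 204.08, 184.66 and 195.69 TPM in *Ltf*-KO SCs. As for *Trp53*, the *Ltf*-KO libraries spread on both sides of a tight WT group, with coefficients of variation of 5.00% and 1.42%. The log2 difference was 0.025 (95% confidence interval -0.079 to 0.13, limma adjusted p = 0.999), and -0.0086 without *Ltf*-KO replicate 1. *Ccng2*, its paralog, which is controlled by FOXO factors more than by p53, was at 14.27, 15.26 and 16.71 TPM in WT and 19.75, 20.31 and 15.81 TPM in *Ltf*-KO SCs. *Ltf*-KO replicates 1 and 2 lay above all WT libraries and the remaining one lay within them (log2 difference 0.25, standard error 0.108, unadjusted p = 0.0543 in limma).

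Among the apoptosis genes, *Bax*, which opens pores in the outer mitochondrial membrane, was at 416.69, 427.72 and 449.62 TPM in WT and 416.42, 424.85 and 416.5 TPM in *Ltf*-KO SCs. WT replicate 3 was the highest library, and the *Ltf*-KO libraries lay within the WT range or just under it. The log2 difference was -0.04 (95% confidence interval -0.127 to 0.046, limma adjusted p = 0.999), or 0.916- to 1.03-fold, the narrowest interval of the 10 genes. In GENCODE M21, 192 of the 1576 exon bases of *Bax* (12.2%) also belong to the predicted gene Gm45808 on the same strand, which was listed at 0 in all libraries.

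*Bbc3*, which encodes PUMA and frees Bax and Bak by binding their inhibitors, was at 15.53, 9.61 and 11.91 TPM in WT and 11.9, 15.23 and 12.74 TPM in *Ltf*-KO SCs. WT held both the highest and the lowest library. It was the most variable of the 10 genes in both genotypes. Its coefficient of variation in WT was 24.2%, where the median of tested genes between 10 and 100 TPM was 5.58%. The log2 difference of 0.12 (95% confidence interval -0.297 to 0.527, limma adjusted p = 0.999) changed to -0.039 without WT replicate 2. The interval runs from 0.814- to 1.44-fold.

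The genes that Bax and PUMA act with were also examined. *Bax* exceeded *Bak1*, the other pore-forming member, by a factor of 7.13 to 9.35, *Bcl2l1* (which encodes BCL-XL) by 5.72 to 6.60, and *Mcl1* by 7.65 to 9.13 across the 6 libraries. *Bcl2* was low, at 1.52 to 1.94 TPM, and *Cycs*, which encodes the cytochrome c that such pores release, was at 79.77 to 90.64 TPM. *Bok*, a further relative of *Bax*, was at 109.2 to 112.79 TPM. *Pmaip1*, which encodes the PUMA relative NOXA and is a p53 target too, was at 64 ± 2.92 TPM in WT and 67.3 ± 5.41 TPM in *Ltf*-KO SCs (SD, n = 3 each), so *Bbc3* stood at 0.146 to 0.256 of it. Of the 18 listed partners 13 were tested, and 0 had an adjusted and 0 an unadjusted p under 0.05 in limma. With 3.78% of all tested genes at such an unadjusted p, nothing is read from 0 of 13. Among the 13 tested, *Bcl2l2* (-0.25) and *Bad* (0.11) had the largest log2 differences, with unadjusted p = 0.372 and 0.25 in limma. *Bik*, a pro-apoptotic gene left untested because its mean was under 1 TPM, was at 1.02, 1.23 and 1.43 TPM in WT and 0.91, 0.56 and 0.51 TPM in *Ltf*-KO SCs. All *Ltf*-KO libraries were below WT here. How many genes under 1 TPM have such an order was not counted, and nothing is read from it. *Gfral*, the receptor of GDF15, was listed at 0 in all libraries.

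*Btg2*, an antiproliferative gene whose product brings the CCR4-NOT deadenylase to mRNAs, was at 14.5, 14.98 and 15.71 TPM in WT and 16.87, 16.4 and 17.36 TPM in *Ltf*-KO SCs. Each *Ltf*-KO library was above each WT library, and the gap between the groups, from 15.71 to 16.4 TPM, was narrow. Means were 15.1 ± 0.609 and 16.9 ± 0.48 TPM (SD, n = 3 each), a ratio of 1.12. The log2 difference was 0.15 (standard error 0.055, 95% confidence interval 0.022 to 0.287), with an unadjusted p = 0.0286 and an adjusted p = 0.999 in limma, the 253rd smallest p of all tested genes. The difference stayed above 0 under every alternative run, from 0.13 to 0.18, and the adjusted p was between 0.946 and 1. Its unadjusted p was 0.059 with quantile normalization, and 0.0876, 0.0703, 0.0671 and 0.0846 without WT replicate 1, WT replicate 2, *Ltf*-KO replicate 1 and *Ltf*-KO replicate 3.

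Of the other 5 genes of the BTG and TOB family, *Btg4* was listed at 0 in all libraries and the remaining ones were at 18.33 TPM or more. *Btg1* was at 26.3 ± 3.39 TPM in WT and 26.6 ± 3.88 TPM in *Ltf*-KO SCs (SD, n = 3 each), 1.28 to 1.88 times *Btg2* in each library. *Tob2*, of the same family, had a log2 difference of 0.20 (unadjusted p = 0.127 in limma). *Cnot7*, a deadenylase subunit that BTG proteins bind, was at 52.36, 53.5 and 55.23 TPM in WT and 52.03, 47.6 and 49.62 TPM in *Ltf*-KO SCs. It was named after its values were seen, as all its *Ltf*-KO libraries were below WT, which was so for 483 of all tested genes (3.73%). Its log2 difference was -0.11 (unadjusted p = 0.0618 in limma), while its paralog *Cnot8* differed by -0.017.

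*Phlda3*, whose product competes with AKT for membrane lipids and so holds AKT back, was at 261.78, 239.9 and 253.32 TPM in WT and 272.24, 270.55 and 259.91 TPM in *Ltf*-KO SCs. The groups overlapped only through *Ltf*-KO replicate 3, which lay just under WT replicate 1. Means were 252 ± 11.0 and 268 ± 6.68 TPM (SD, n = 3 each), a log2 difference of 0.089 (standard error 0.042, 95% confidence interval -0.013 to 0.19, unadjusted p = 0.0768 and adjusted p = 0.999 in limma). It had the second lowest p of the 10 genes, with a difference between 0.055 and 0.117 over the alternatives run. Its unadjusted p in limma ran from 0.0385 (without WT replicate 1) to 0.231 over them. *Phlda1* was at a lower level, with *Phlda3* at 2.14 to 2.47 times it, and *Phlda2*, an imprinted gene, was at 0.12 to 0.93 TPM.

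*Zmat3*, a zinc finger gene whose product binds RNA and alters splicing, was at 39.1, 37.86 and 39.4 TPM in WT and 41.88, 38.56 and 39.69 TPM in *Ltf*-KO SCs. *Ltf*-KO replicate 1 stood highest and the remaining 5 libraries lay within 2 TPM. The log2 difference was 0.044 (95% confidence interval -0.07 to 0.158, limma adjusted p = 0.999), or 0.953- to 1.12-fold. *Zmat2*, a splicing factor of the same family, was more abundant, with *Zmat3* at 0.326 to 0.356 of it, whereas *Zmat4* was listed at 0.

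*Sesn2* and *Gdf15* respond to metabolic stress as well as to p53, partly through the factor ATF4. The *Sesn2* product restrains mTORC1 when leucine is scarce. *Sesn2* was at 10.79, 9.68 and 10.68 TPM in WT and 10.56, 12.11 and 9.53 TPM in *Ltf*-KO SCs. The *Ltf*-KO libraries held the extremes on both sides, and the log2 difference was 0.039 (95% confidence interval -0.191 to 0.269, limma adjusted p = 0.999). Leaving out WT replicate 2 gave -0.006, and leaving out *Ltf*-KO replicate 2 gave -0.044. *Sesn1*, another sestrin that p53 induces, was at 5.33, 5.15 and 5.77 TPM in WT and 4.12, 4.92 and 4.79 TPM in *Ltf*-KO SCs. All *Ltf*-KO libraries were below WT here (log2 difference -0.20, standard error 0.094, unadjusted p = 0.0781 in limma), and *Sesn1*, named after its values were seen, belongs to the 3.73% of tested genes with that order. *Sesn3* was at 6.61 to 7.86 TPM.

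*Gdf15*, which encodes a secreted stress hormone of the TGF-β superfamily, was at 8.69, 9.17 and 11.28 TPM in WT and 9.18, 10.56 and 10.24 TPM in *Ltf*-KO SCs. The *Ltf*-KO libraries lay within the WT range. The log2 difference was 0.043 (95% confidence interval -0.214 to 0.3, limma adjusted p = 0.999), and -0.026 without WT replicate 1. On the log2(TPM + 1) scale a change at this level is slightly understated.

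The highest and the lowest library differed between the 10 genes. WT replicate 2 was below the 6-library mean for 9 of the 10 genes, and the lowest library for *Phlda3*, *Zmat3* and *Bbc3*. WT replicate 3 was the highest library for *Bax*, *Mdm2* and *Gdf15*, *Ltf*-KO replicate 1 for *Phlda3*, *Ccng1* and *Zmat3*, and *Ltf*-KO replicate 2 for *Trp53* and *Sesn2*. *Ltf*-KO replicate 3 was the highest for *Btg2* and the lowest for *Trp53*, *Mdm2* and *Sesn2*. The summed differentiation markers were also highest in *Ltf*-KO replicate 3 (3800 TPM) and next highest in WT replicate 2 (3271 TPM), and were 2397 to 2784 TPM in the other 4 libraries. *Sesn2*, singled out here after its values were seen, was lowest in these 2 libraries, at 9.53 and 9.68 TPM against 10.56 to 12.11 TPM in the others. *Btg2* was above its 6-library mean in *Ltf*-KO replicate 3 and below it in WT replicate 2. The part of differentiation in these values was not tested. Without *Ltf*-KO replicate 3 the difference of *Trp53* was -0.0021 and that of *Btg2* was 0.14.

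**Figure D3:**
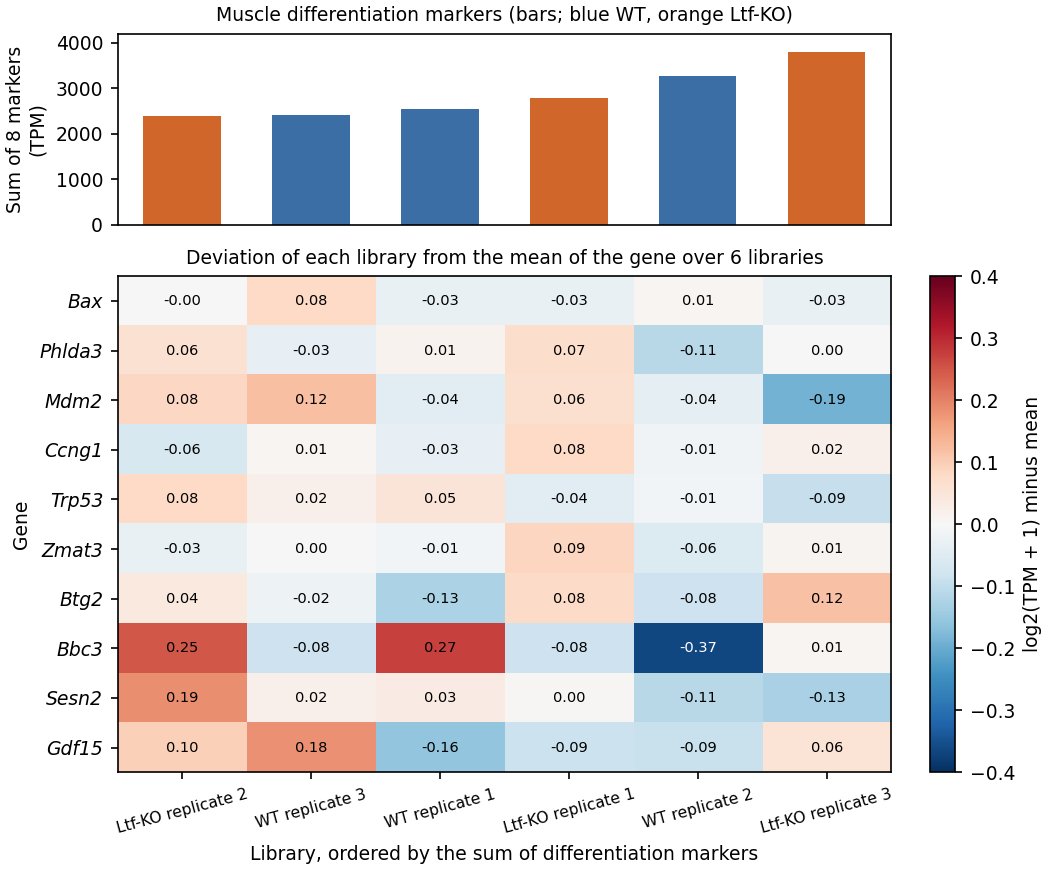
The upper bars give the summed TPM of 8 muscle differentiation markers in each library (WT blue, *Ltf*-KO orange), and the grid below gives, in log2 units, how far each gene in that library lies from its mean over 6 libraries. *Mdm2* is lowest (-0.19) in *Ltf*-KO replicate 3, the library with the most differentiation transcripts, while *Bbc3* runs from -0.37 in WT replicate 2 to 0.27 in WT replicate 1.

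The wider p53 pathway was read from lists of genes. Of 18 regulators of p53, 16 were tested, and 0 had an adjusted and 0 an unadjusted p under 0.05 in limma. The unadjusted share of all tested genes was 3.78%, and nothing is read from a count of 0 in a list this short. The 16 regulators had a median log2 difference of -0.0068, with 8 above and 8 below 0. *Rpl11* and *Rpl5*, ribosomal proteins that bind Mdm2, and *Usp7*, a deubiquitinase of Mdm2 and p53, were the most abundant, with *Rpl11* at 1701 ± 32 and 1701 ± 11.3 TPM (SD, n = 3 each) in WT and *Ltf*-KO SCs. The kinases that activate p53 after DNA breaks had the largest differences. *Atm* was at 12.31, 11.45 and 14.16 TPM in WT and 11.07, 10.85 and 10.87 TPM in *Ltf*-KO SCs, with every *Ltf*-KO library below WT (log2 difference -0.19, standard error 0.083, unadjusted p = 0.0603 in limma). It was the 1 tested regulator whose groups did not overlap (6.25%, against 8.46% of all tested genes, and 3.73% with *Ltf*-KO below WT). *Chek2* was at 11.11, 12.03 and 13.61 TPM in WT and 9.69, 10.94 and 11.26 TPM in *Ltf*-KO SCs, with an overlap through *Ltf*-KO replicate 3 (log2 difference -0.19, unadjusted p = 0.0888 in limma). The p53 relatives *Trp63* and *Trp73* were at 0.33 TPM or less in all 6 libraries.

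A further 36 p53 targets, *Cdkn1a* included, were listed by role, and 34 of them were tested. In limma 0 had an adjusted and 0 an unadjusted p under 0.05, against 0.0% and 3.78% of all tested genes. The 34 had a median log2 difference of 0.015, with 19 above 0. The groups did not overlap for 3 of them (8.82%), close to the 8.46% of all tested genes. These were *Sesn1*, *Tigar* and *Ak1*, named after their values were seen. *Tigar*, a phosphatase that lowers glycolysis, was at 11.33 to 11.56 TPM in WT and 11.85 to 13.14 TPM in *Ltf*-KO SCs, and *Ak1*, an adenylate kinase, at 118.07 to 126.92 and 127.58 to 133.4 TPM.

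By role, the median difference of the 8 tested arrest genes was -0.006, that of the 12 apoptosis genes was -0.0017 and that of the 14 repair and metabolism genes was 0.025. *Rps27l*, *Cdkn1a* and *Gpx1* were the most abundant of these targets. *Cdkn1a* had a log2 difference of 0.056 (standard error 0.045, unadjusted p = 0.254 in limma). *Gls2*, a mitochondrial glutaminase, had the largest difference at -0.32, with 2.71, 2.22 and 1.86 TPM in WT and 1.47, 1.26 and 2.13 TPM in *Ltf*-KO SCs. The groups overlapped through *Ltf*-KO replicate 3, and the unadjusted p was 0.117 in limma. *Sfn*, which encodes 14-3-3σ, followed at -0.21 (unadjusted p = 0.365 in limma), at 0.7 to 1.83 TPM across the libraries. Differences at such low levels are understated on the log2(TPM + 1) scale. With a pseudocount of 0.1 they were -0.47 for *Gls2* and -0.38 for *Sfn*.

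The deposited annotation places 71 genes, 7 of the 10 among them, in the KEGG p53 signaling pathway. Of the 66 that were tested, 0 had an adjusted p and 1 an unadjusted p under 0.05 in limma (1.52%), against 3.78% of all tested genes. That gene was *Ccne2*, which encodes the S-phase entry cyclin E2, at 35.28, 37.09 and 35.5 TPM in WT and 33.54, 30.56 and 30.5 TPM in *Ltf*-KO SCs. All *Ltf*-KO libraries were below WT, with a log2 difference of -0.18 (standard error 0.054, unadjusted p = 0.0127 and adjusted p = 0.999 in limma). Its partner kinase *Cdk2*, named after its values were seen, was at 56.17 to 56.67 TPM in WT and 49.14 to 55.64 TPM in *Ltf*-KO SCs (log2 difference -0.11, unadjusted p = 0.0787 in limma). *Ccne1*, the paralog of *Ccne2* and also named after its values were seen, overlapped between genotypes and went the other way. It was at 32.26 to 39.08 TPM in WT and 35.03 to 38.56 TPM in *Ltf*-KO SCs (log2 difference 0.07, unadjusted p = 0.398 in limma). The groups did not overlap for 4 genes of the pathway (6.06%), against 8.46% of all tested genes, and all 4 had *Ltf*-KO below WT, as 3.73% of all tested genes did. These were *Ccne2*, *Cdk2*, *Atm* and *Sesn1*.

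Of 12 genes that p53 lowers through p21, such as *Cdk1*, *Birc5* and *Ccnb1*, all were tested. In limma 0 had an adjusted and 0 an unadjusted p under 0.05, against 0.0% and 3.78% of all tested genes. Their median log2 difference was -0.02, with 3 above 0. *Birc5*, which encodes survivin, was at 184.94, 181.36 and 159.2 TPM in WT and 168.89, 153.5 and 168.06 TPM in *Ltf*-KO SCs, and overlapped between genotypes. *Mcm5*, a subunit of the replicative helicase, was at 82.29, 77.98 and 78.8 TPM in WT and 73.19, 76.13 and 76.84 TPM in *Ltf*-KO SCs (log2 difference -0.079, unadjusted p = 0.0961 in limma). It was the 1 gene of the 12 whose groups did not overlap (8.33%, against 8.46% of all tested genes). Of the 19 paralogs of the 10 genes, 13 were tested, with a median difference of 0.058. Again 0 had an adjusted and 0 an unadjusted p under 0.05 in limma, against the same shares of all tested genes.

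**Figure D4:**
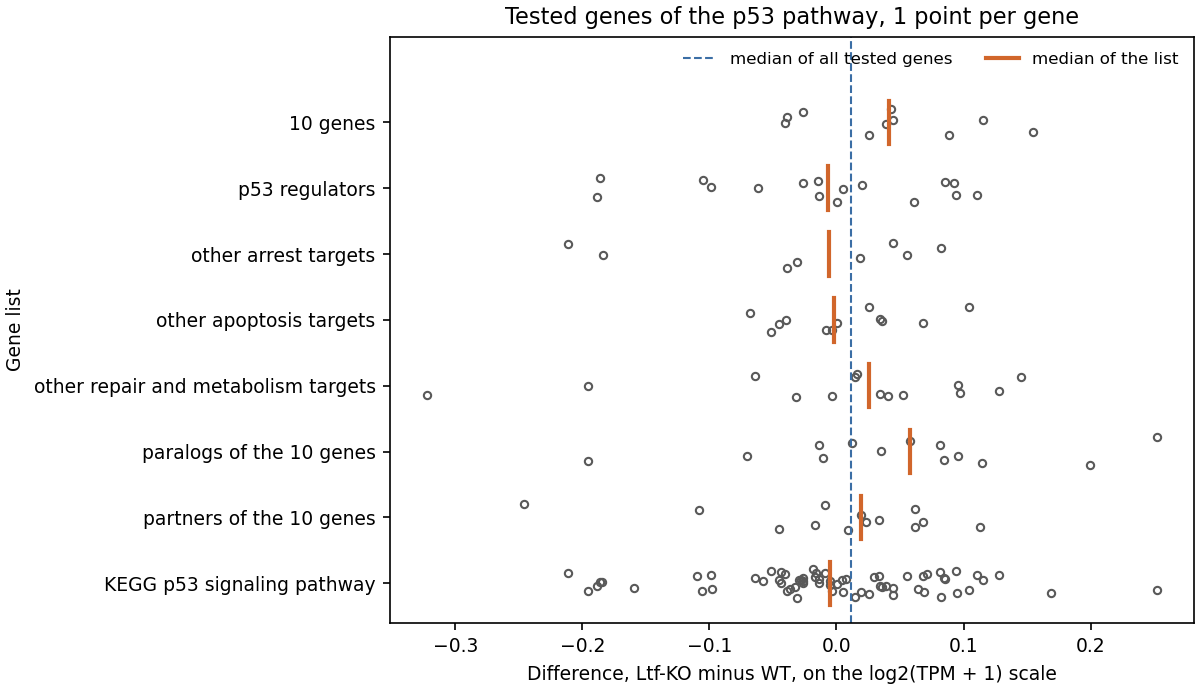
Log2 differences between *Ltf*-KO and WT of the tested genes in 8 lists, 1 point per gene, without the list of genes lowered through p21, with the list median as an orange bar and the median of all tested genes (0.011) as a dashed line. A gene may stand in several lists, and the plotted medians lie between -0.007 and 0.058.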

How the data were processed

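RNA of SCs grown for 4 days was sequenced from 3 WT and 3 *Ltf*-KO libraries. The authors deposited TPM values with 2 decimals for 55416 genes. They state that data were extracted and normalized by the sequencing company's protocol. The submitters' processing notes name GRCm39, and the aligner, counting tool, strand setting and annotation are not given in the sources used here. TPM keeps no depth, so precision was judged from the spread between replicates. Genotype and replicate number came from the sample titles.

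*Ltf*-KO was compared with WT by limma 3.58.1 in R 4.3.3 (lmFit and eBayes with a variance trend, two-sided) on log2(TPM + 1). Genes whose mean reached 1 TPM were kept (12956), with Benjamini-Hochberg adjustment over all of them and a threshold of 0.05. The fit was tested on simulated data. Lists are described by counts and medians. The 10 genes and the lists were chosen with earlier results of these data known. Named genes were the 10, *Cdkn1a*, list genes at an unadjusted p under 0.05, and in each list the 3 most abundant and the 2 with the largest difference. Further list genes, shown as relatives, partners or because their groups did not overlap, fall outside that rule and were chosen after their values were seen. Alternatives were a pseudocount of 0.1, no filter, a minimum mean of 10 TPM, quantile normalization, median-of-ratios scaling, no variance trend, the replicate number as a block, and each library left out in turn. Promoters are from RefSeq (GRCm38.p6), and chromosomes and exons from GENCODE M21 (GRCm38), a build other than that of the notes. The table holds no coordinates.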

Additional observations from a re-analysis of the deposited data

How the results depend on the processing

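At an adjusted p under 0.05 in limma, 0 of the 10 genes, p53 regulators, other targets and KEGG pathway genes were called under any alternative run. With one library left out, 0 to 7 of all tested genes were called (7 without WT replicate 2, 6 without *Ltf*-KO replicate 1, 3 without *Ltf*-KO replicate 3, 2 without WT replicate 3 or *Ltf*-KO replicate 2). At an unadjusted p under 0.05 there were 490 of all tested genes, 890 when no filter was used and 281 above 10 TPM, as more or fewer genes were tested. Of the 490, 46.9% were lower in *Ltf*-KO, a share that became 60.0% after quantile normalization and 57.6% after median-of-ratios scaling. The 10 genes had 1, but 0 after quantile normalization and 0 to 1 with one library left out (0 without WT replicate 2, *Ltf*-KO replicate 1 or *Ltf*-KO replicate 3). Without WT replicate 1 that 1 gene was *Phlda3* (unadjusted p = 0.0385 in limma) and not *Btg2* (0.0876). The p53 regulators had 0, but 1 after quantile normalization or median-of-ratios scaling, and 0 to 2 with one library left out (2 without WT replicate 1, 1 without WT replicate 2 or *Ltf*-KO replicate 1). The other targets had 0, but 1 when no filter or no variance trend was used, and 0 to 1 with one library left out (0 only without WT replicate 2). The KEGG pathway genes had 1, but 2 after either scaling or when no variance trend was used, and 2 to 3 with one library left out (3 without *Ltf*-KO replicate 1). With one library left out, the median difference of the 10 genes was 0.0015 (without WT replicate 2) to 0.057. That of the KEGG pathway genes was -0.005, but -0.0169 after median-of-ratios scaling and -0.0109 to 0.0103 (without WT replicate 3) with one library left out. Leaving one library out turned the direction of *Mdm2* (-0.075 to 0.061, and 0.027 without WT replicate 3), *Ccng1* (-0.0086 to 0.063), *Bbc3* (-0.039 to 0.281), *Gdf15* (-0.026 to 0.145) and *Sesn2* (-0.044 to 0.114, and -0.006 without WT replicate 2). *Trp53*, *Bax*, *Btg2*, *Phlda3* and *Zmat3* kept their direction under every alternative run. *Gdf15* was not tested above 10 TPM. The cause was not tested.

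Replicate numbers occur in both genotypes, but same-numbered libraries did not deviate together (r = -0.041, -0.058 and -0.088 over genes), so the numbers were not taken to pair them. With the replicate block 0 of the 10 genes had an unadjusted p under 0.05 in limma, *Btg2* standing at 0.0625, and no call at an adjusted p changed.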
